A study of Mus musculus with 12 samples.

Results

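The C/EBP transcription factor genes Cebpa, Cebpb, Cebpd, Cebpg and Cebpe were followed through ATAC-seq peaks of mouse fat with and without BAF60a in adipocytes. ATAC-seq counts the places where a transposase can insert adapters into DNA, so a peak with more reads is more open chromatin. The members were all peaks whose assigned gene symbol was 1 of these 5 names, which gave 27 of 58558 brown fat peaks and 24 of 39558 inguinal fat peaks. Brown fat peaks were 10 at Cebpa, 2 at Cebpb, 2 at Cebpd, 11 at Cebpg and 2 at Cebpe. Inguinal fat peaks were 5, 2, 5, 11 and 1 in the same order. The assignment is by distance and does not show which gene a peak acts on: the Cebpg peaks downstream of its start site lie in introns of Pepd, except the peaks over the start site itself, and those of Cebpd far downstream lie in introns of Spidr.

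All mice were C57BL/6 and carried floxed alleles of Smarcd1, the gene of BAF60a, which belongs to the SWI/SNF remodelers of chromatin. AKO mice also carried Cre under the Adiponectin promoter, which acts in adipocytes, and flox mice were littermates without it. Brown fat came from 3 flox and 3 AKO mice, 1 mouse per sample, and the age and housing temperature of these mice are not given in the sources used here. Inguinal fat came from mice aged 6 to 8 months kept at 10 °C for 7 days. The fat of 6 such mice was pooled for each genotype and divided into 3 aliquots, so the 3 inguinal samples of a genotype differ only by handling, and their p-values cover the spread between aliquots and not between mice.

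C/EBP proteins are leucine zipper transcription factors that bind DNA as dimers with each other. In the making of fat cells, C/EBPβ and C/EBPδ come first and C/EBPα follows, together with PPARγ, to keep the genes of the mature adipocyte on. C/EBPγ lacks a strong activation domain and dampens or redirects its partners, and C/EBPε is known mainly from granulocytes.

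The stretches below are those on which the results turn: 3 Cebpa peaks that were lower in AKO brown fat and the Cebpg peak with the smallest p-value among the inguinal members. Each is the middle 300 bases of its peak, or the whole peak where it is shorter, read 5′ to 3′ on the plus strand of GRCm38 (mm10), and none touches an exon. Capitals mark a match to the EBF core CCCNNGGG, and the C/EBP half-site pair TTGCNNAA was searched as well, both on either strand.
Cebpa 8375 bp downstream, brown fat, chr7:35127519-35127818: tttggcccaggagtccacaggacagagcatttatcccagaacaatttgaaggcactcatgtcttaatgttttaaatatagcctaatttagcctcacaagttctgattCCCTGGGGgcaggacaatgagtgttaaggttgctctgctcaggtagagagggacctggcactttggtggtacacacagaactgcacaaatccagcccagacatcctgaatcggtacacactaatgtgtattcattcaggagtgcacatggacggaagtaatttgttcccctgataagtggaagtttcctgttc
Cebpa 19247 bp downstream, brown fat, chr7:35138391-35138690: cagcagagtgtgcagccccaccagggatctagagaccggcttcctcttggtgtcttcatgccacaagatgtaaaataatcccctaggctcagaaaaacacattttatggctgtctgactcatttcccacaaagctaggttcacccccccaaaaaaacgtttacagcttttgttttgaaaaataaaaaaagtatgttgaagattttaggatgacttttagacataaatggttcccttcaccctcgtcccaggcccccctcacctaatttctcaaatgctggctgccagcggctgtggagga
Cebpa 25045 bp downstream, brown fat, chr7:35144189-35144488: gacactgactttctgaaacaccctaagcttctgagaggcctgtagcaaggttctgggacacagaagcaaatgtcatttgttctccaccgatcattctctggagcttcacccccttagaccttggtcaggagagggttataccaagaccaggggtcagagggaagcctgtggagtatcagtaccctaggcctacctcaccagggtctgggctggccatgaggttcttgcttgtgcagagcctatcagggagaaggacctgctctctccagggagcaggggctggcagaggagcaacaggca
Cebpg 20201 bp upstream, inguinal fat, chr7:35076619-35076916: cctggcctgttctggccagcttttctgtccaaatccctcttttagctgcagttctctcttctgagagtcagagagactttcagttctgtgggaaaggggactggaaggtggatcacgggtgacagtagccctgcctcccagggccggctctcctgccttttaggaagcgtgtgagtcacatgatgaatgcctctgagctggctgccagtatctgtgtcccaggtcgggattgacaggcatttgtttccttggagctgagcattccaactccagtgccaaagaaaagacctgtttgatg

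The first of these holds 1 EBF core match, and the other 3 hold neither motif. In windows of 300 bp at the middle of every peak, the C/EBP motif was found in 3 of 27 member windows of brown fat, or 11.1%, against 15.1% of all 58558 windows, and in 4 of 24 member windows of inguinal fat, or 16.7%, against 14% of 39558. The EBF core was found in 8 brown fat member windows, or 29.6%, against 18.7% of all, and in 5 inguinal ones, or 20.8%, against 18.3%. The cAMP response element TGACGTCA and the CHOP:ATF4 composite TGATGCAA were found in 0 member windows of either fat, and in 0.695% and 1.07% of all windows in brown fat and 0.963% and 1.04% in inguinal fat. No window of the Cebpa start-site peak held any of the 4 motifs in either fat.

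Values are given as normalized reads, that is, each peak's reads over the size factor of its sample. Reads in peaks ranged from 6336670 in the AKO brown fat sample 2 to 27500738 in the flox brown fat sample 1, and from 4066720 to 6691161 in inguinal fat. The first principal component of all brown fat peaks (PC1) held 55.58% of the variance and scored -98.15, -41.83 and 14.63 in flox samples and -0.62, 112.5 and 13.5 in AKO samples, so its ends are the deepest and the shallowest sample. The lowest score is of a flox sample and the highest of an AKO sample, so PC1 lies partly along genotype too. A fit with PC1 can therefore take up part of a genotype difference, and depth and genotype cannot be told apart along it. PC1 was a covariate in the brown fat fit, and values without it are given beside it where they change a reading. The peak inside Smarcd1 (chr15:99704113-99704521) held 174 ± 33.9 reads, normalized, in flox brown fat against 36.2 ± 18.9 in AKO (SD, n = 3). Its limma adjusted p was 0.269 and its DESeq2 adjusted p 4.05e-11. No brown fat peak had a limma adjusted p under 0.269, so limma did not call even this peak of the targeted gene. The peak at its start site held 437 ± 60.5 and 442 ± 47.5 in brown fat. In inguinal fat only the peak at its start site was listed, with 216 ± 30.7 and 231 ± 1.83.

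Of the 27 brown fat members, 0 passed limma at an adjusted p of 0.1 in either direction, as did 0% of all peaks lower and 0% higher. At an unadjusted p of 0.05 limma with PC1 gave 4 members lower, all at Cebpa, and 0 higher, against 5.59% of all peaks lower and 3.46% higher. Without PC1, members higher in AKO passed too: the Cebpg peak 60429 bp downstream (limma unadjusted p = 0.00852) and the Cebpa peak 6431 bp upstream (0.0265). So did the Cebpa peak 3928 bp downstream (0.0393), which was lower. The share of all peaks that pass without PC1 was not counted. DESeq2 called 1 member lower, 19247 bp downstream of Cebpa, and 0 higher, where it called 0.298% of peaks lower and 0.11% higher. It gave 5 members no adjusted p. edgeR called 0 members, and 0.114% of peaks lower and 0.029% higher. In 6 members, or 22.2%, every AKO sample lay below every flox sample, against 8.84% of all peaks. In 1 member, or 3.7%, every AKO sample lay above, against 8.77%. The median log2 fold change was -0.02 over the members and 0.01 over all peaks. All 27 members had a mean of at least 10 normalized reads. Members of a gene lie near each other and are not independent, so no test of the list was made.

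Cebpa, whose product with PPARγ maintains adipocyte genes, held 5 of these 6 separated peaks. All 5 lie downstream of the gene, between 3928 and 25045 bp from its start site, and their means were 26.7% to 39.5% lower in AKO. Of the 8 downstream peaks, a group not set in advance, 7 had a negative log2 fold change, against 28733 of all 58558 peaks. The limma unadjusted p was under 0.05, with lower AKO values, at 4 of them, against 5.59% of all peaks. The start-site peak did not separate the genotypes.

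The peak 19247 bp downstream (chr7:35138242-35138839, in an intron of the long noncoding gene Gm35665) had 305, 469 and 426 normalized reads in flox samples and 210, 247 and 269 in AKO samples. The highest AKO sample lay below the lowest flox sample. On the log2 scale AKO less flox was -0.91 (SE 0.246, limma adjusted p = 0.459), and DESeq2 gave an adjusted p of 0.0459 and edgeR 0.14. Without PC1 the limma value was -0.71 and DESeq2 gave an adjusted p of 0.0981, and over 18 alternatives in all the adjusted p ran from 0.0459 to 0.693.

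The peak 25045 bp downstream (chr7:35143993-35144684, between genes) had 606, 675 and 669 normalized reads in flox samples and 422, 444 and 476 in AKO samples. Its genotypes lay well apart, with SDs of 38.0 and 27.2 around means of 650 and 447. Its log2 fold change was -0.59 (SE 0.181, limma adjusted p = 0.482).

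The peak 8375 bp downstream (chr7:35127256-35128080, between genes) had 275, 329 and 307 normalized reads in flox samples and 198, 212 and 245 in AKO samples. Every AKO sample was lower, by 28.1% between the means, and the log2 fold change was -0.52 (SE 0.203, limma adjusted p = 0.535).

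The other separated peaks at Cebpa were chosen for display after their values were seen. The peak 22522 bp downstream (chr7:35141295-35142335), which covers the start of Gm35665, had 763, 1061 and 1039 normalized reads in flox samples and 724, 572 and 638 in AKO samples. Its lowest flox and highest AKO sample were close, and the log2 fold change was -0.59 (SE 0.247, limma adjusted p = 0.548). The peak 3928 bp downstream (chr7:35122805-35123638) had 562, 455 and 448 normalized reads in flox samples and 368, 338 and 367 in AKO samples. It lies between the gene's end and the more distal peaks, and its log2 fold change was -0.28 with PC1 (adjusted p = 0.68) and -0.44 without it.

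The Cebpa peak over the start site (chr7:35118311-35120239) is the highest of the gene in reads. It had 2361, 2337 and 2080 normalized reads in flox samples and 1946, 1356 and 2214 in AKO samples. AKO sample 3 lay above flox sample 3, and AKO sample 2, the shallowest library, lay lowest. The log2 fold change was -0.01 with PC1 (SE 0.209, limma adjusted p = 0.992) and -0.32 without it. The peak 6431 bp upstream (chr7:35112674-35113051) went the other way, with means of 40.6 ± 22.3 and 79.9 ± 28.1 that overlap, and a log2 fold change of 0.20 with PC1 and 1.03 without it.

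**Figure D1:**
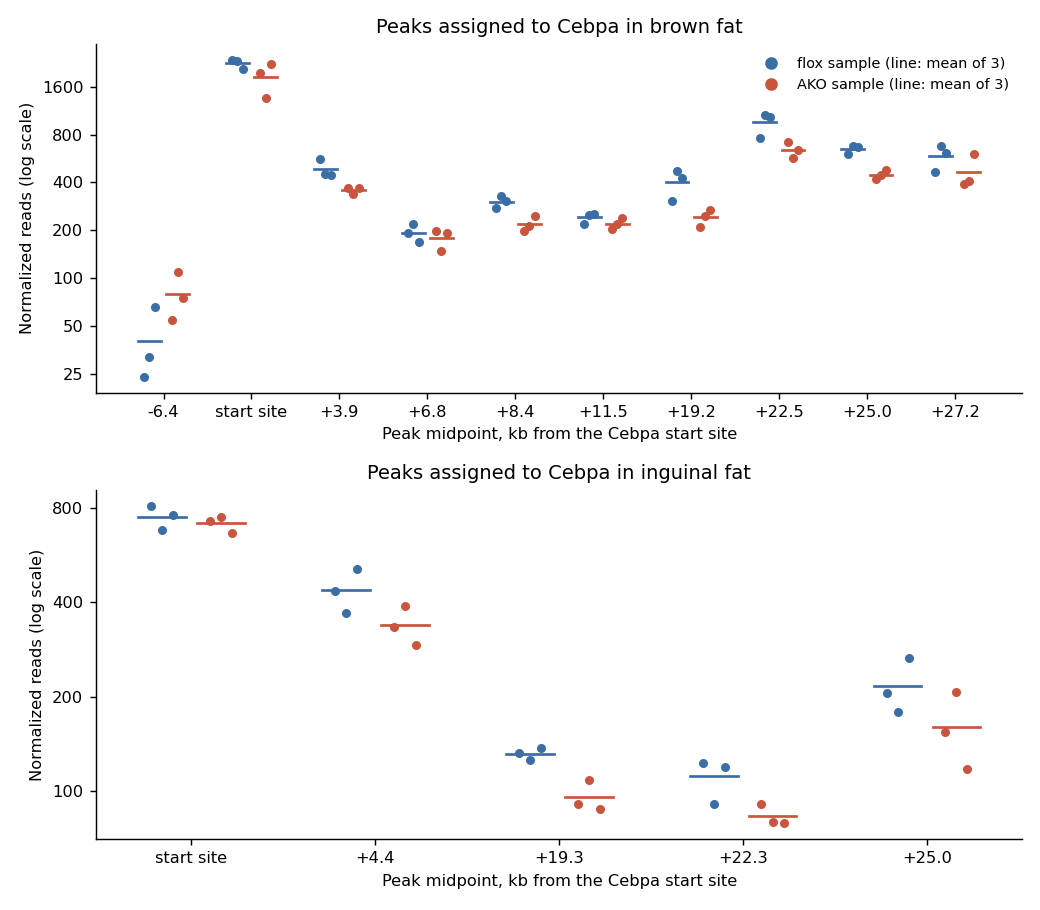
Normalized reads (log scale) of every Cebpa peak by its distance from the start site in kb, 1 point per sample with a line at the mean of 3, flox in blue and AKO in red, for brown fat above and inguinal fat below. In brown fat all AKO points lie below all flox points at 5 downstream peaks, and at the start site they overlap.

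**Figure D2:**
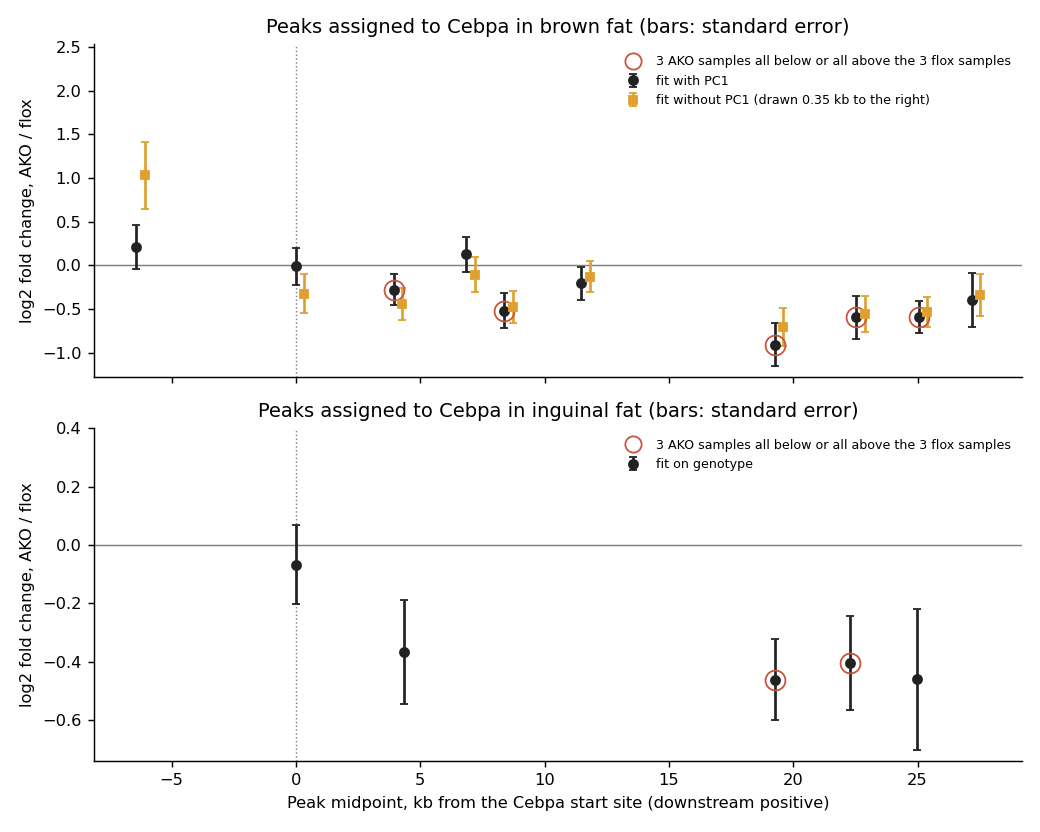
Log2 fold change of AKO over flox, with its standard error, for each Cebpa peak against distance from the start site in kb, from the fits with and without PC1 in brown fat and on genotype alone in inguinal fat; circles mark peaks whose genotypes do not overlap. The downstream peaks that are circled lie between -0.28 and -0.91 in brown fat.

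The summed reads at peaks of adipocyte marker genes were also lower in AKO brown fat. These are sums of normalized reads, with no PC1 term. The marker lists share Adipoq, Fabp4, Ucp1, Pparg and Ebf2 with the lists of targets and co-acting factors below, so they are not separate from those. Over 6 of 6 adipocyte markers (Adipoq, Plin1, Lipe, Cidec, Fabp4, Pparg) the sums ran from 19561 to 21174 in flox and from 13389 to 18239 in AKO brown fat, 21.8% lower on average. Over 6 of 6 brown adipocyte markers they were 33.2% lower, with 20515 to 26035 in flox and 14548 to 16930 in AKO. Endothelial sums (5 of 5 genes) were 2.59% higher, fibroblast sums (5 of 5) 0.702% higher and myeloid sums (6 of 11) 11.4% lower, and their part in the Cebpa values was not tested. Skeletal muscle sums (2 of 5 genes with a peak) were 12.6% higher and lymphocyte sums (1 of 6) 0.322% higher. In bulk tissue, fewer adipocytes and less open chromatin per adipocyte cannot be told apart.

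Cebpb, an early factor of adipocyte differentiation, had its higher peak over and upstream of the start site (chr2:167686394-167689641), with 3761, 3409 and 2833 normalized reads in flox samples and 2499, 2210 and 2983 in AKO samples. AKO sample 3 lay above flox sample 3. The log2 fold change was -0.12 with PC1 (SE 0.192, limma adjusted p = 0.868) and -0.38 without it. The other Cebpb peak, 8823 bp upstream in an intron of Tmem189, had means of 67.9 and 68.3.

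Cebpd, the other early factor, had its start-site peak at chr16:15886648-15888145, over the coding exon, with 907, 726 and 618 normalized reads in flox samples and 674, 485 and 766 in AKO samples. The genotypes overlap, and the log2 fold change was 0.18 with PC1 (SE 0.185, limma adjusted p = 0.791) but -0.23 without it. The peak 61213 bp downstream (chr16:15948239-15948760) had 207, 109 and 128 normalized reads in flox samples and 163, 147 and 159 in AKO samples. It too overlaps, with a log2 fold change of 0.42 with PC1 (SE 0.282, adjusted p = 0.689), 0.13 without it and 0.22 without flox sample 2.

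Cebpg, the dampening partner, had its start-site peak at chr7:35055846-35056862, with 913, 797 and 727 normalized reads in flox samples and 850.5, 562 and 741 in AKO samples. This peak overlaps between genotypes, at 0.14 with PC1 (SE 0.179, limma adjusted p = 0.843) and -0.19 without it. The highest Cebpg peak, 14179 bp downstream (chr7:35041303-35043472, in an intron of Pepd), had 1937, 1833 and 1823 normalized reads in flox samples and 1677, 1441 and 1675 in AKO samples. Every AKO sample was below every flox sample there, yet the log2 fold change was -0.10 (SE 0.172, adjusted p = 0.879) with PC1 and -0.23 without it. The only member whose AKO samples all lay above flox was 60429 bp downstream (chr7:34995848-34996427), with 46.0, 69.5 and 55.6 normalized reads in flox samples and 82.5, 166 and 99.8 in AKO samples. AKO sample 2 was the highest, and the log2 fold change was 0.50 with PC1 (SE 0.27, adjusted p = 0.623) and 0.97 without it. The peak 24468 bp upstream (chr7:35080873-35081195) had 41.8, 55.4 and 44.0 normalized reads in flox samples and 51.5, 57.9 and 62.4 in AKO samples, which overlap, with 0.24 (SE 0.221, adjusted p = 0.776) and 0.055 without flox sample 3. The remaining 7 Cebpg peaks overlap, with log2 fold changes from -0.36 to 0.13 with PC1 and from -0.11 to 0.45 without it.

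Cebpe, the granulocyte factor, had no peak over its start site in either table. Its nearer brown fat peak, 8966 bp upstream (chr14:54720950-54721330), had 90.9, 97.5 and 102 normalized reads in flox samples and 111, 79.2 and 95.0 in AKO samples. Its higher one, 30119 bp upstream in an intron of Slc7a8 (chr14:54741772-54742814), had 214, 263 and 225 in flox samples and 221, 384 and 272 in AKO samples. Both overlap between genotypes, and their log2 fold changes were 0.07 (adjusted p = 0.939) and -0.02 (adjusted p = 0.984), turning to -0.04 and 0.29 without PC1.

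In inguinal fat 0 of 24 members passed limma, and 0% of all peaks did lower and 0% higher. At an unadjusted p of 0.05 there were 3 members lower and 4 higher, against 7.42% and 7.61% of all peaks. DESeq2 called 0 members lower and 1 higher, the Cebpg peak 20201 bp upstream, where it called 0.63% of peaks lower and 0.546% higher, with 1 member left without an adjusted p. edgeR called 3 members lower and 2 higher, against 2.52% and 2.15% of all peaks. Those lower by edgeR were the Cebpa peaks 4362 and 24981 bp downstream and the Cebpg peak 13792 bp downstream, with adjusted p of 0.0294, 0.0674 and 0.0395. Those higher were the Cebpg peaks 20634 bp downstream and 20201 bp upstream, with adjusted p of 0.0583 and 0.0275. Over 16 alternatives the adjusted p of the peak 20634 bp downstream reached 0.457 and that of the peak 13792 bp downstream 0.683, and the 2 Cebpa peaks were named here after their edgeR values were seen. Genotypes did not overlap at 3 members lower, or 12.5%, against 10.3% of all peaks, and at 6 higher, or 25%, against 10.6%. The median log2 fold change was -0.07 over the members and -0.00089 over all peaks, and all 24 members had a mean of at least 10.

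All 5 Cebpa peaks of inguinal fat had a negative log2 fold change, as did 19838 of all 39558 peaks. The peak 19265 bp downstream (chr7:35138268-35138848) had 133, 126 and 137 normalized reads in flox aliquots and 91.1, 108 and 87.7 in AKO aliquots. The genotypes did not overlap, and the log2 fold change was -0.46 (SE 0.139, limma adjusted p = 0.209). The peak 22284 bp downstream (chr7:35141402-35141752) had 123, 91.2 and 120 normalized reads in flox aliquots and 91.1, 79.9 and 79.1 in AKO aliquots. Flox aliquot 2, at 91.17, and AKO aliquot 1, at 91.06, were nearly equal, so this separation is narrow. Here the log2 fold change was -0.40 (SE 0.162, adjusted p = 0.307). The start-site peak (chr7:35118460-35120159) had 812, 680 and 760 normalized reads in flox aliquots and 727, 751 and 668 in AKO aliquots, which overlap, at -0.07 (SE 0.135, adjusted p = 0.853). The 2 remaining peaks, 4362 and 24981 bp downstream, had -0.37 and -0.46 (limma adjusted p = 0.384 and 0.419) and overlap by aliquot.

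Cebpb had a start-site peak (chr2:167687585-167689317) with 604, 599 and 584 normalized reads in flox aliquots and 611, 676 and 691 in AKO aliquots. Every AKO aliquot was higher, by 10.7% between the means, with 0.14 on the log2 scale (SE 0.125, limma adjusted p = 0.627). Cebpd had a start-site peak (chr16:15886787-15887885) with 418, 409 and 332 normalized reads in flox aliquots and 356, 381 and 453 in AKO aliquots, which overlap, with 0.04 (SE 0.16, adjusted p = 0.934). The other 4 Cebpd peaks were between -0.46 and -0.10 and all overlap.

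Cebpg had 4 inguinal peaks with every AKO aliquot above every flox aliquot and 1 with every AKO aliquot below. The peak 20201 bp upstream (chr7:35076619-35076916, between genes) had 22.1, 24.5 and 26.7 normalized reads in flox aliquots and 62.2, 53.7 and 39.6 in AKO aliquots. The means were 24.4 ± 2.29 and 51.8 ± 11.5, 112% higher in AKO, and the log2 fold change was 1.04 (SE 0.19, limma adjusted p = 0.149, DESeq2 adjusted p = 0.0878). Its adjusted p ran from 0.0275 to 0.338 over 16 alternatives. Both means are low beside the median of 70 over all inguinal peaks. The brown fat peak over the same bases (chr7:35076527-35076916) had means of 121 in flox and 113 in AKO, overlapping samples and a log2 fold change of -0.15. The peak 20634 bp downstream (chr7:35035310-35036554) had 153, 155 and 152 normalized reads in flox aliquots and 242, 196 and 186 in AKO aliquots. Its flox aliquots were close together and all lower, with 0.43 on the log2 scale (SE 0.145, limma adjusted p = 0.243). The peak 13792 bp downstream (chr7:35042052-35043497) had 473, 350 and 412 normalized reads in flox aliquots and 338, 345 and 290 in AKO aliquots, which do not overlap, and a log2 fold change of -0.34 (SE 0.16, adjusted p = 0.376). The start-site peak (chr7:35055987-35056841) had 371, 357 and 327 normalized reads in flox aliquots and 305, 351 and 390 in AKO aliquots, with -0.02 (SE 0.145, adjusted p = 0.969). The peak 24550 bp upstream (chr7:35080867-35081366) had 78.4, 66.7 and 92.1 normalized reads in flox aliquots and 40.3, 50.2 and 70.6 in AKO aliquots, which overlap at flox 2 and AKO 3, with -0.57 (SE 0.228, adjusted p = 0.302). The 2 further peaks with all AKO aliquots above flox were 15160 and 41102 bp downstream, with 0.59 (adjusted p = 0.266) and 0.22 (adjusted p = 0.522).

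Cebpe was represented by 1 inguinal peak, 30448 bp upstream in an intron of Slc7a8 (chr14:54742484-54742760). It had 32.8, 26.7 and 30.1 normalized reads in flox aliquots and 43.8, 51.4 and 48.1 in AKO aliquots. No aliquot overlaps, and the log2 fold change was 0.66 (SE 0.141, limma adjusted p = 0.151). Its means, 29.9 in flox and 47.8 in AKO, are low beside the median of 70 over all inguinal peaks. In the inguinal AKO aliquots adipocyte marker sums were 8.68% lower but within the flox range (2736 to 3513 in flox, 2821 to 3089 in AKO). Brown adipocyte sums were 10% higher (2123 to 2229 against 2342 to 2495). Myeloid sums (8 of 11 genes with a peak) were 14.8% lower (928 to 945 against 784 to 820). Endothelial sums (4 of 5) were 13.3% lower (766 to 855 against 671 to 740). Fibroblast sums (5 of 5) were 0.846% lower and skeletal muscle sums (2 of 5) 5.24% lower. Lymphocyte sums (1 of 6, 1 peak) were 29.2% higher (60.0 to 74.9 against 75.9 to 92.2). The part of these cell types in the values above was not tested.

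**Figure D3:**
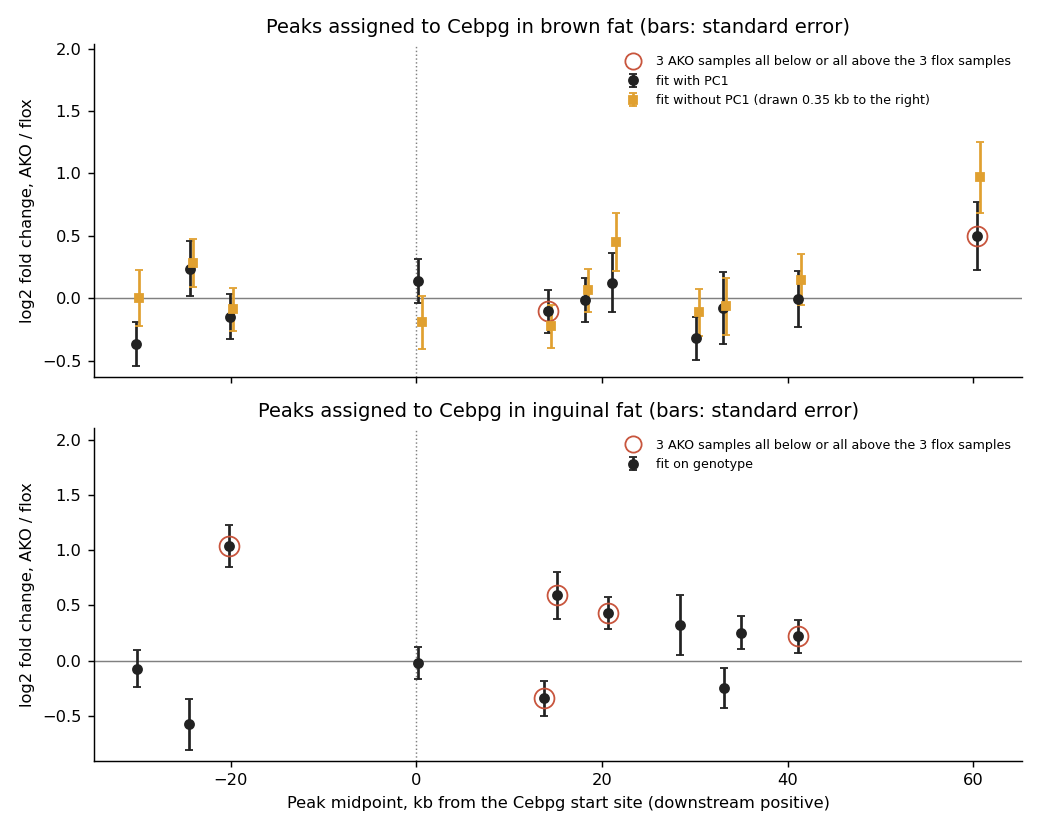
Log2 fold change of AKO over flox with its standard error for each Cebpg peak against distance from the start site in kb; circles mark peaks whose genotypes do not overlap. In inguinal fat the peak 20201 bp upstream stands at 1.04 and the start-site peak at -0.02.

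The level of the start-site peaks was compared between genes per kb of peak, within each table. The order depends on the called widths, which ran from 1017 bp at Cebpg to 3248 bp at Cebpb in brown fat. In reads not divided by width, the flox brown fat mean was higher at Cebpb (3334) than at Cebpa (2260). In flox brown fat Cebpa was highest, at 1171 ± 80.8 normalized reads per kb (SD, n = 3), followed by Cebpb at 1027 ± 144, Cebpg at 798.7 ± 92.6 and Cebpd at 501.1 ± 97.4. Cebpa and Cebpb overlap in their samples, as do Cebpb and Cebpg, while Cebpg and Cebpd do not. The order was the same in AKO brown fat, at 953.3, 789.3, 705.7 and 428.3. In flox inguinal fat the order was Cebpa at 441.6 ± 39.0, Cebpg at 411.2 ± 26.1, Cebpd at 351.8 ± 43.0 and Cebpb at 343.6 ± 6.11, where Cebpg and Cebpd are the only neighbours in this order that do not overlap. In AKO inguinal fat Cebpb, at 380.4, stood above Cebpd, at 361.2, and all neighbours overlap.

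**Figure D4:**
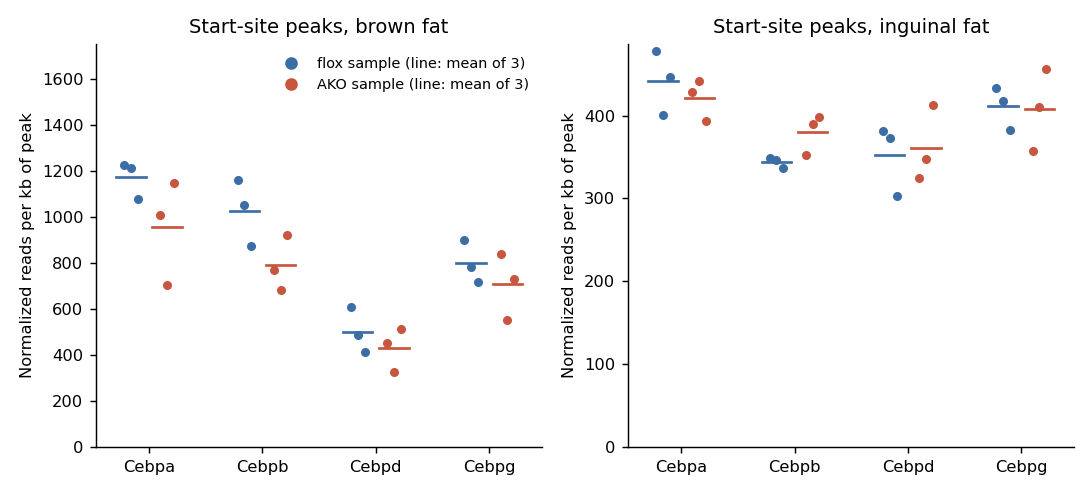
Normalized reads per kb of the start-site peak of Cebpa, Cebpb, Cebpd and Cebpg in brown fat (left) and inguinal fat (right), 1 point per sample and a line at the mean of 3, flox in blue and AKO in red. Flox and AKO points overlap in every gene and fat except Cebpb in inguinal fat.

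Of the members, 18 brown fat peaks (66.7%) overlap an inguinal peak by at least 1 bp and 19 inguinal peaks (79.2%) overlap a brown fat one, in 19 pairs. The log2 fold change was negative in both fats at 8 pairs, positive in both at 3 and opposite at 8. All 5 Cebpa pairs were negative in both. At 3 pairs every AKO sample was below every flox sample in both fats, which were the Cebpa peaks near 19247 and 22522 bp and the Cebpg peak 14179 bp downstream, the latter with its larger inguinal partner. In each fat alone this held for 8.84% of all brown fat peaks and 10.3% of all inguinal peaks. Neither these separations nor the signs were counted over the shared peaks of all genes, so the pair counts have no background. The tables were normalized separately, so fold changes are set side by side and not tested against each other.

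**Figure D5:**
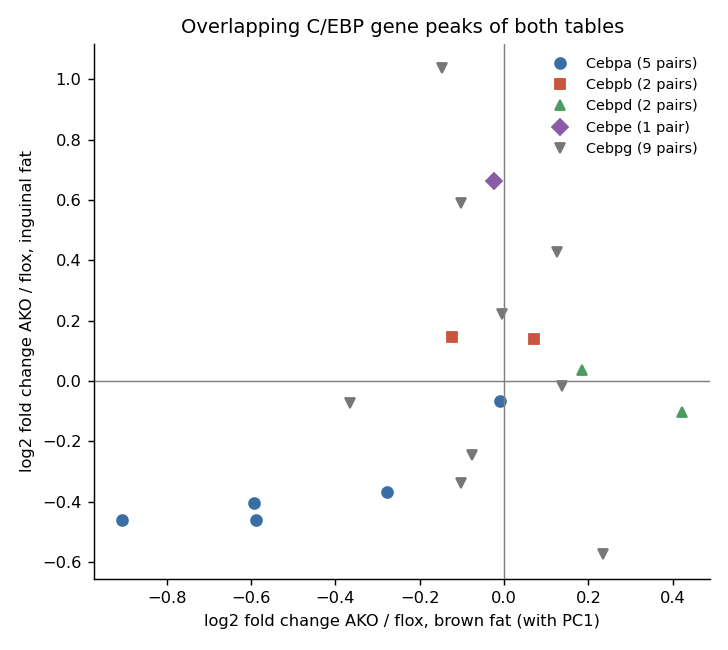
Log2 fold change of AKO over flox in brown fat (x axis) and inguinal fat (y axis) for the 19 overlapping pairs of C/EBP gene peaks, by gene. The 5 Cebpa pairs all lie below 0 on both axes, and the 8 opposite pairs are 5 of Cebpg and 1 each of Cebpb, Cebpd and Cebpe.

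Genes that act with the C/EBP factors were counted in 4 lists, chosen with earlier results at Ucp1, Pck1, Pparg and Adipoq known, and limma called 0 of their peaks in either fat. Targets (Fabp4, Adipoq, Lep, Slc2a4, Insr, Agpat2, Scd1, Pck1, Ucp1, Ppargc1a) held 103 brown fat peaks, of which 76 had a negative log2 fold change and 29 (28.2%) were lower and 6 (5.83%) higher without overlap, against 8.84% and 8.77% of all brown fat peaks, with a median of -0.26. Co-acting factors (Pparg, Prdm16, Ebf2) held 33, of which 27 were negative and 13 (39.4%) lower and 1 (3.03%) higher without overlap, with a median of -0.27. Of all 58558 brown fat peaks 28733 had a negative log2 fold change. Inducers (Klf4, Klf5, Egr2, Creb1, Nr3c1, Stat5a, Stat5b) held 78, with 6 (7.69%) lower and 3 (3.85%) higher, and a median of -0.0041. Partners and inhibitors (Ddit3, Atf4, Batf3, Trib1, Trib2, Trib3; Cebpz had no peak) held 39, with 5 (12.8%) lower and 3 (7.69%) higher, and a median of 0.01. DESeq2 called 6 target peaks lower and 1 partner peak higher, and 0 peaks of the other 2 lists, where it called 0.298% of all peaks lower and 0.11% higher. edgeR called 5 target peaks lower and 0 others, against 0.114% of all peaks lower and 0.029% higher.

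Ucp1, the uncoupling protein of brown fat, held in its peak of smallest p-value (chr8:83298730-83300383) 1629, 1143 and 952 normalized reads in flox brown fat, while AKO samples held 312, 332 and 227, a log2 fold change of -1.93 (limma adjusted p = 0.417). The Pparg peak of smallest p-value (chr6:115456095-115456644) held 169, 208 and 194 in flox against 115, 83.1 and 83.5 in AKO, -0.97 (adjusted p = 0.44). Both are well separated, as is a peak of Nr3c1, the glucocorticoid receptor gene, at -1.20 (adjusted p = 0.417). This Nr3c1 peak (chr18:39465326-39465533) had means of 48.8 in flox and 25.2 in AKO, low beside the median of 125 over all brown fat peaks. A peak of Batf3, a leucine zipper gene, had 1.34 with PC1 (adjusted p = 0.444) and 0.63 without it, and its genotypes overlap.

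In inguinal fat the lists held 48 target, 13 co-acting, 50 inducer and 26 partner peaks, and without overlap 7 (14.6%), 1 (7.69%), 5 (10%) and 0 were lower, against 10.3% of all inguinal peaks, and 3 (6.25%), 1 (7.69%), 3 (6%) and 2 (7.69%) were higher, against 10.6%. Their medians were 0.01, -0.02, -0.07 and -0.03, and DESeq2 called 2 target peaks lower and no others, against 0.63% of all peaks lower and 0.546% higher. edgeR called 6 target peaks lower, 1 inducer peak lower and 1 higher, and 1 co-acting peak higher, against 2.52% of all peaks lower and 2.15% higher. By smallest p-value the leading peak was at Fabp4, the fatty acid carrier, for targets (-0.85, adjusted p = 0.152), at Ebf2 for co-acting factors (-0.45, adjusted p = 0.219), at Nr3c1 for inducers (0.75, adjusted p = 0.161) and at Batf3 for partners (0.38, adjusted p = 0.292).

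Peaks most like the Cebpa start-site peak across the 6 brown fat samples, more than 1 Mb away and with a mean of at least 100, were at Zfp148, Ubald1 and Sdhaf1, with Pearson's r of 0.9983, 0.9977 and 0.9973 on log2 values. Of 34069 peaks compared 883 had r over 0.95, so these are the top of many. For the Cebpb start-site peak they were at Tff3, Orc2 and Rassf2 (0.9977, 0.9976 and 0.9975). In inguinal fat they were at Zfp397, Hic1 and Psme2 for Cebpa (0.9969, 0.9948 and 0.9927) and at Ptgds, Garnl3 and Gm12669 for Cebpb (0.9957, 0.9895 and 0.9867). The samples share depth and PC1, and such r describe 6 points.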

How the data were processed

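ATAC-seq was measured in 3 flox and 3 AKO brown fat samples (1 mouse each) and in 3 aliquots of 1 pool of cold-acclimated inguinal fat per genotype. According to the methods, the authors trimmed adapters, mapped to mm10, removed duplicates and low-quality reads, called broad peaks and counted reads in them. The submitters' processing notes name BWA 0.7.17-r1188, Picard 2.8.14, MACS2 2.1.1.20160309, bedtools 2.27.1 and DESeq2 1.20.0. Signal in both deposited tables is the read number of a peak over a size factor that the authors set per sample, and each table was scaled on its own. The deposited log2 fold changes, p-values and adjusted p-values are those of the authors' own comparison and were not used. Undoing the division gave whole reads for 100% of values within 0.01 reads, and 0 columns of sample values were unused. Labels and methods differ in the number of nuclei per reaction.

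Peak starts count from 0 in the files, since the deposited distances follow only then, and 1 was added. Distances are those of peak midpoints from RefSeq start sites. Each table was fitted on all peaks with limma 3.58.1 (lmFit and eBayes) on log2 of normalized reads plus 1. The contrast was AKO less flox, PC1 entered the brown fat model alone, and calls used Benjamini-Hochberg adjustment and a threshold of 0.1. DESeq2 1.42.0 and edgeR 4.0.16 were run on the recovered reads as alternatives, besides total reads and TMM scaling, pseudocounts of 0.1 and 10, a minimum mean of 10, a GC correction in 20 bins, a window of 50 kb, a threshold of 0.05, each sample left out, no PC1 and blocks by replicate number. DESeq2 without PC1 was added after the values were seen. The fits were run on simulated reads with set genotype changes. Those reads held no component like PC1, so they cannot check the PC1 covariate of the brown fat fit. An exact test of 3 against 3 samples cannot give p under 0.1. Depth is in the report.

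Members and lists were chosen with earlier results of these data known. Named in full were, per gene and table, the peak nearest the start site and the highest, per table the 3 members with the smallest p-value in each direction, members called by limma or DESeq2, the smallest p-value per list, and the 3 peaks most alike; peaks named beyond this are marked as such or given by range. Sequences come from the RefSeq GRCm38.p6 genome, the build of the files. The sequence of 1 further peak is not reported here. R 4.3.3, Python 3.11.15 and pysam 0.24.0 were used.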

Additional observations from a re-analysis of the deposited data

Results flagged for a closer look

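The Cebpg peak 15160 bp downstream in inguinal fat had every AKO aliquot above every flox aliquot, with a log2 fold change of 0.5905, while the brown fat peak over the same bases (chr7:35041303-35043472) had every AKO sample below every flox sample, with -0.10. The opposite directions singled it out, and the difference between the fats was not tested. The brown fat peak is wider and also overlaps, over 1421 bp, the inguinal peak chr7:35042052-35043497, which was lower in the AKO aliquots. Brown fat reads were counted over the whole wider peak, so its value cannot be assigned to either part. Flox aliquot 3, at 56.8 normalized reads, lay just under AKO aliquot 3, at 57.7.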

How the results depend on the processing

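Counts of calls moved only with the count tools: DESeq2 on the reads called 1 member lower in brown fat, with or without PC1 (the latter added after seeing the data), and 1 higher in inguinal fat, and edgeR called 3 lower and 2 higher in inguinal fat, each against 0 by limma. Within 50 kb of the start sites, 0 brown fat members stood higher without overlap, against 1. Scaling by total reads left 5 members lower without overlap in brown fat, against 6, and 2 in inguinal fat, against 3. TMM scaling also left 2 lower in inguinal fat. With a 50% overlap rule 13 pairs of peaks were shared in place of 19. The main fits did not pair samples by replicate number. Deviations of same-numbered samples correlated at 0.494, 0.0632 and -0.236 in brown fat and at -0.0387, -0.0497 and -0.0566 in inguinal fat. Those of differently numbered brown fat samples ran from -0.538 to 0.481, and with so few samples this cannot decide whether the numbers pair them. A block on the numbers called 0 peaks in either fat, as did the main limma fits.

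Of the 24 named peaks, those that changed sign started between -0.12 and 0.18, except the Cebpg peak 60429 bp downstream in brown fat, which went from 0.50 to -0.015 without flox sample 3. With the GC correction the Cebpe peak 30119 bp upstream moved to 0.054 and the Cebpg start-site peak to -0.029 in brown fat, and the Cebpd start-site peak to -0.0048 in inguinal fat. Without PC1, and the same with the replicate block, the brown fat Cebpe peaks 8966 and 30119 bp upstream gave -0.037 and 0.29, the Cebpd start-site peak -0.23 and the Cebpg one -0.19, and DESeq2 without PC1 gave -0.0088, 0.31, -0.22 and -0.18 for these 4. The causes were not tested.

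With each sample left out in turn, the median over members ran from -0.129 (without AKO sample 3) to -0.024 in brown fat and from -0.067 to 0.0060 (without flox aliquot 1) in inguinal fat. In brown fat the ranges were -0.12 to 0.31 and -0.43 to 0.21 for the Cebpe peaks, -0.24 to 0.047 for the Cebpb start-site peak, -0.015 to 0.70 for the Cebpg peak 60429 bp downstream, -0.17 to 0.14 for the Cebpa start-site peak, 0.068 to 0.31 and 0.22 to 0.52 for the Cebpd start-site peak and the one 61213 bp downstream, and 0.030 to 0.25, 0.055 to 0.37 and -0.13 to -0.024 for the Cebpg peaks at the start site, 24468 bp upstream and 14179 bp downstream. In inguinal fat they were -0.067 to 0.11, -0.10 to 0.075 and -0.14 to -0.0088 for the Cebpd, Cebpg and Cebpa start-site peaks. The Cebpa peak 19247 bp downstream stayed between -1.09 and -0.77 in brown fat, and the Cebpg peak 20201 bp upstream between 0.89 and 1.21 in inguinal fat. The median peak held 70 to 226 reads in the brown fat samples and 62 to 98 in the inguinal aliquots.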
